A study of Mus musculus with 8 samples.

Results

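The genes described here are 9 members of the RGS family, Rgs1, Rgs2, Rgs3, Rgs10, Rgs12, Rgs14, Rgs16, Rgs18 and Rgs19, out of 24062 genes in a count table of mouse immature myeloid cells (IMCs). They were found by their symbols, and the family was chosen by the level of Rgs1, which was lower after deletion of PARP1. The values of the PARP1 comparison are therefore given for these genes as a description, with no test. All 9 genes passed the filter on low counts, as did 13197 genes in all.

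The RNA libraries of IMCs numbered 8, with 2 for each of 4 groups. All donors were C57BL/6 mice of 2 months. PARP1 WT mice were PARP1 flox/flox and PARP1CKO mice PARP1 flox/flox+lysozyme-Cre, and the PARP2 WT and PARP2CKO groups were PARP2 flox/flox and PARP2 flox/flox+lysozyme-Cre in the same way. All 4 groups thus carried floxed alleles, and only the CKO groups carried Cre, which the lysozyme promoter expresses in cells of the myeloid lineage, so a gene may be left intact in part of a culture. Marrow cells were grown for 3 days in 40 ng per mL of M-CSF, the growth factor of macrophages, and the labels do not describe a sort. The study compared each CKO group with its littermate WT group to ask which genes depend on PARP1 and which on PARP2, 2 enzymes that attach poly(ADP-ribose) to proteins. The labels do not say whether the 2 libraries of a group came from separate mice or cultures, so p-values measure the spread between libraries.

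RGS proteins switch off signals from G-protein-coupled receptors. Such a receptor, once bound by a chemokine, lipid or other ligand, loads GTP onto a G alpha subunit, which then separates from the beta and gamma subunits, and both parts act on enzymes that make second messengers. The RGS domain speeds up the hydrolysis of that GTP, so that the subunits join again and the signal ends. In myeloid cells most chemokine and chemoattractant receptors act through the Gi class, and RGS proteins are known to limit their response. Rgs1, Rgs2, Rgs3, Rgs16 and Rgs18 belong to the R4 branch of the family, small proteins made of little besides the RGS domain (Rgs3 also has longer forms). Rgs10, Rgs12 and Rgs14 form the R12 branch, and Rgs19 belongs to the RZ branch.

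Libraries held between 37852450 and 61845125 counts assigned to genes. Levels are given as CPM, the counts of a gene scaled to a common library total, with factors of the trimmed mean of M values (TMM) between 0.965 and 1.03. Parp1 was at 206 ± 6.18 CPM (SD, n = 2) in PARP1 WT against 61.2 ± 2.91 CPM in PARP1CKO IMCs (adjusted p = 0.0134 by the quasi-likelihood test of edgeR, adjusted after Benjamini and Hochberg), and Parp2 at 48.2 ± 0.105 CPM in PARP2 WT against 25.7 ± 0.0779 CPM in PARP2CKO IMCs (adjusted p = 0.000139 by the same edgeR test). The call of Parp1 was lost in edgeR without PARP1 WT replicate 1 (adjusted p = 0.0753), PARP1 WT replicate 2 (adjusted p = 0.0650) or PARP1CKO replicate 2 (adjusted p = 0.0531), while its log2 fold change of -1.75 lay between -1.80 and -1.71 when single libraries were left out. In the PARP2 WT libraries Parp1 itself stood at 251 and 155 CPM. Of 8 markers of monocytes and macrophages none was at 0, and their summed level was 10097 to 10903 CPM in PARP1 WT, 8223 to 8800 in PARP1CKO, 14332 to 15506 in PARP2 WT and 10548 to 11841 in PARP2CKO libraries. The difference within each line came from Lyz2, which made up 42.5% to 69.7% of the sum. The 7 other markers summed to 4385 to 4517 CPM in PARP1 WT against 4466 to 4728 in PARP1CKO, with overlap, and to 4608 to 4703 CPM in PARP2 WT against 4802 to 5100 in PARP2CKO libraries, where both CKO libraries were higher.

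Between genes, levels were compared as CPM per kb of the longest coding transcript. Rgs10, an RGS protein of microglia and macrophages, stood highest, with a mean over the 8 libraries of 100 CPM per kb and a range of 90.3 to 103. Rgs19, also known as GAIP, followed at 63.9 (59.7 to 66.2) CPM per kb, and Rgs2, which acts mainly on the Gq class, at 43.0 (34.7 to 47.7). These first 3 genes did not overlap each other over the libraries. Rgs18, known from platelets and blood cell precursors, had 28.0 (24.8 to 31.6) CPM per kb. Rgs1, a brake on chemokine receptors in leukocytes, had 26.3 (13.7 to 37.5) CPM per kb. Rgs14, which can bind G alpha through a GoLoco motif as well as through its RGS domain, had 21.0 (19.2 to 22.4) CPM per kb. The range of Rgs1 overlapped those of Rgs2, Rgs18 and Rgs14, so the rank of Rgs1 differed between libraries. Rgs3 stood at 3.40 (2.97 to 3.80), Rgs12 at 0.917 (0.811 to 0.986) and Rgs16 at 0.131 (0.0657 to 0.179) CPM per kb, and none of these 3 overlapped a neighbour. The order of Rgs10, Rgs19 and Rgs2 used transcripts of 880, 1511 and 3021 bases. With the shortest coding transcript of Rgs19, of 779 bases, that gene would have 116 to 128 CPM per kb and stand above Rgs10 in all 8 libraries, so the order of these genes depends on the transcript used.

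In terms of group means, Rgs1 stood at 33.7 CPM per kb in PARP1 WT, 15.9 in PARP1CKO, 29.1 in PARP2 WT and 26.6 in PARP2CKO IMCs. By these means Rgs1 ranked between Rgs2 and Rgs18 in PARP1 WT and PARP2 WT IMCs, and below Rgs14, at 21.9 CPM per kb, in PARP1CKO IMCs. In the WT groups the libraries of Rgs1 and Rgs18 overlapped on this scale. Of the total CPM per kb of the 9 genes, Rgs1 made up 12.3% and 10.4% in the PARP1 WT libraries and 6.52% and 5.23% in the PARP1CKO libraries, against 9.08% to 10.8% in the PARP2 WT and PARP2CKO libraries.

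**Figure D1:**
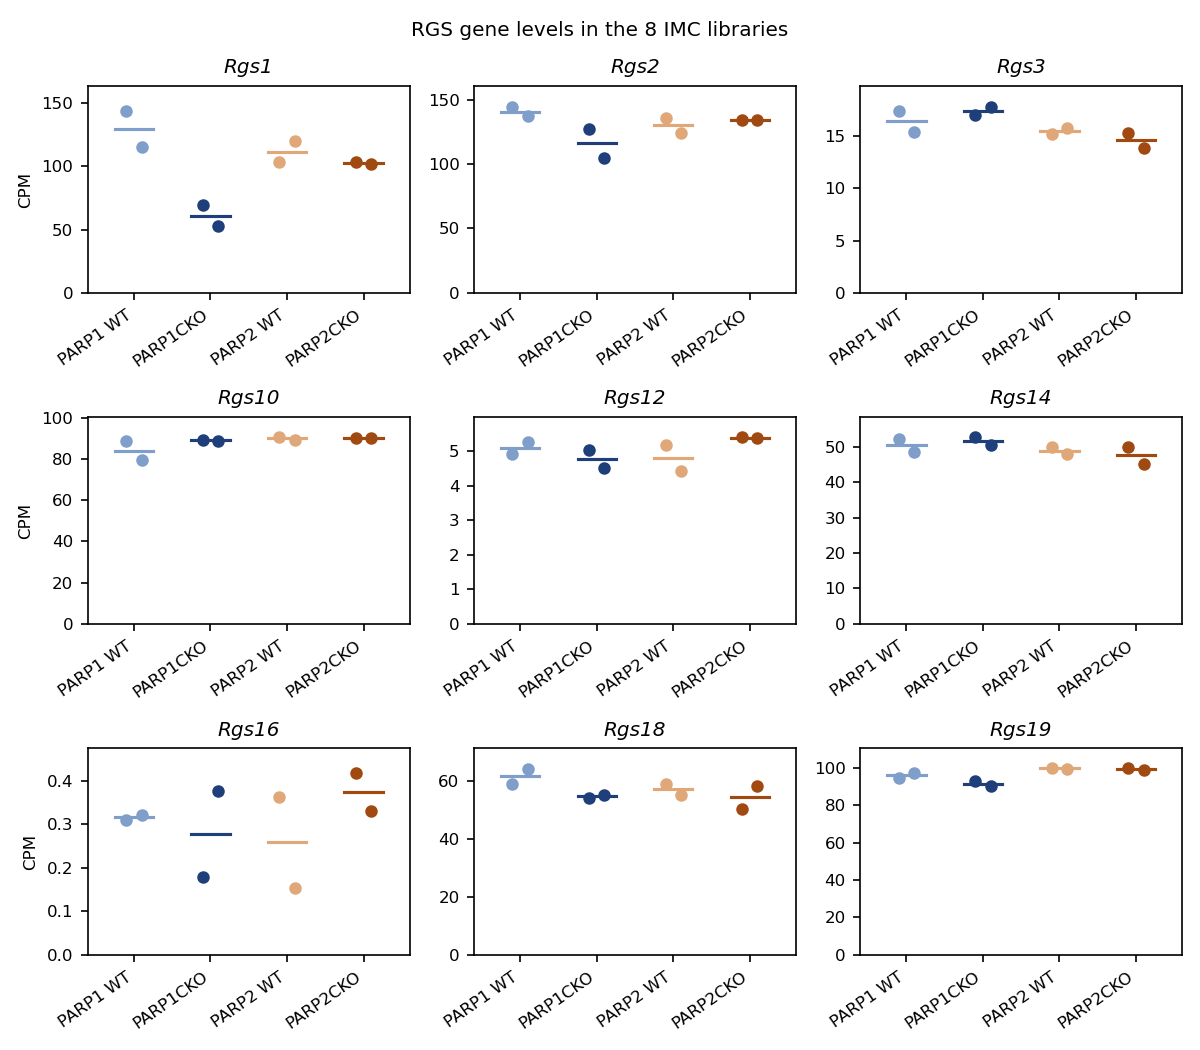
Level of each of the 9 RGS genes in CPM (vertical axis, starting at 0) in the 2 libraries of each group, with points for libraries and a line for the group mean. The PARP1CKO libraries of Rgs1, at 69.2 and 52.8 CPM, lie below the other 6 libraries, and the points of the other genes lie closer together between groups, apart from Rgs16 with its 8 to 25 counts.

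Rgs1 lies on the minus strand of chromosome 1 from 144242296 to 144249242 (GRCm38). It had 144 and 115 CPM in the PARP1 WT libraries and 69.2 and 52.8 CPM in the PARP1CKO libraries. Both PARP1CKO libraries were below both PARP1 WT libraries and also below the 4 libraries of the PARP2 line. The means were 129 ± 20.6 and 61.0 ± 11.6 CPM (SD, n = 2), a level 52.8% lower in PARP1CKO, with a log2 fold change of -1.08 and a standard error of 0.138. Behind these values stood 5571 and 5700 counts for the WT libraries and 3492 and 2385 counts for the CKO libraries. Among the 13197 genes 53 had a lower log2 fold change. Leaving out 1 library at a time moved it to values between -1.29 and -0.90. In RNA of whole cultures, fewer cells of a type that express a gene and less of its RNA per cell cannot be told apart.

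Rgs2 lies 238 kb from Rgs1 on the same strand, from 143999338 to 144004161. It had 144 and 137 CPM in the PARP1 WT and 127 and 105 CPM in the PARP1CKO libraries. The PARP1CKO libraries were again the lower ones, and the 4 libraries of the PARP2 line, at 124 to 136 CPM, lay between the means of both groups. The level was 17.6% lower in PARP1CKO (log2 fold change -0.28, standard error 0.0821). The difference depended on PARP1CKO replicate 2, since the log2 fold change was -0.15 without it and -0.42 without PARP1CKO replicate 1. The count ratio of Rgs1 to Rgs2, which needs no scaling between libraries, was 0.998 and 0.841 in the PARP1 WT libraries and 0.547 and 0.504 in the PARP1CKO libraries. In the PARP2 line this ratio was 0.759 and 0.970 without Cre and 0.769 and 0.756 with it. Against Rgs18 the count ratio of Rgs1 was 2.44 and 1.79 in PARP1 WT and 1.28 and 0.956 in PARP1CKO libraries, and 1.75 to 2.19 in the PARP2 line. On both scales the PARP1CKO libraries had the lowest ratios.

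Rgs18, from 144752683 to 144775435 on chromosome 1, had 59.0 and 64.1 CPM in the PARP1 WT and 54.2 and 55.2 CPM in the PARP1CKO libraries. The level was 11.2% lower in PARP1CKO, without overlap (log2 fold change -0.17, standard error 0.0724). The log2 fold change was -0.11 without PARP1 WT replicate 2 and -0.23 without PARP1 WT replicate 1. Rgs3, whose gene on chromosome 4 gives several transcripts of different length, had 17.4 and 15.4 CPM in PARP1 WT against 17.0 and 17.8 in PARP1CKO. These groups overlapped, and the log2 fold change was 0.09 (standard error 0.0801), or -0.01 without PARP1 WT replicate 2. Rgs16, often an induced member of the family, was near the limit of detection, with 12 and 16 counts in the PARP1 WT and 9 and 17 counts in the PARP1CKO libraries. Its log2 fold change of -0.21 had a standard error of 0.496, and it was -0.82 without PARP1CKO replicate 2 and 0.24 without PARP1CKO replicate 1, so the direction was not determined at this depth.

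In the R12 branch Rgs10 had 88.5 and 79.5 CPM in the PARP1 WT and 89.2 and 88.8 CPM in the PARP1CKO libraries. The groups did not overlap, but the log2 fold change of 0.09 (standard error 0.0512) became 0.00 without PARP1 WT replicate 2. Rgs14 had 52.3 and 48.4 CPM in PARP1 WT against 52.7 and 50.5 CPM in PARP1CKO. Rgs12, a large scaffold protein, had 4.91 and 5.26 CPM against 5.05 and 4.51 CPM. Both overlapped between groups, with log2 fold changes of 0.04 (standard error 0.0602) for Rgs14 and -0.09 (standard error 0.120) for Rgs12. For Rgs14 the log2 fold change was -0.02 without PARP1 WT replicate 2. For Rgs12 it was -0.01 without PARP1CKO replicate 2 and -0.18 without PARP1CKO replicate 1. Rgs19 of the RZ branch had 94.5 and 97.2 CPM in PARP1 WT against 92.7 and 90.2 CPM in PARP1CKO, without overlap, and its level was 4.59% lower (log2 fold change -0.07, standard error 0.0380).

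Counted over the family, PARP1CKO was lower for 6 genes and higher for 3, and the median log2 fold change was -0.09, against 0.01 over all genes tested. In 5 of 9 genes the groups did not overlap, with Rgs1, Rgs2, Rgs18 and Rgs19 lower and Rgs10 higher. Of all genes tested, 41.2% did not overlap, 20.2% lower and 21.0% higher in PARP1CKO. Nothing is read from this count, since the same comparison led to the choice of the family. The summed level of the 9 genes was 583 ± 30.7 CPM (SD, n = 2) in PARP1 WT IMCs, against 486 ± 29.7 CPM in PARP1CKO IMCs. Without Rgs1 the sums were 454 ± 10.2 and 425 ± 18.1 CPM. Rgs1 thus accounted for the larger part of the difference between the sums, and Rgs2 for most of the rest.

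**Figure D2:**
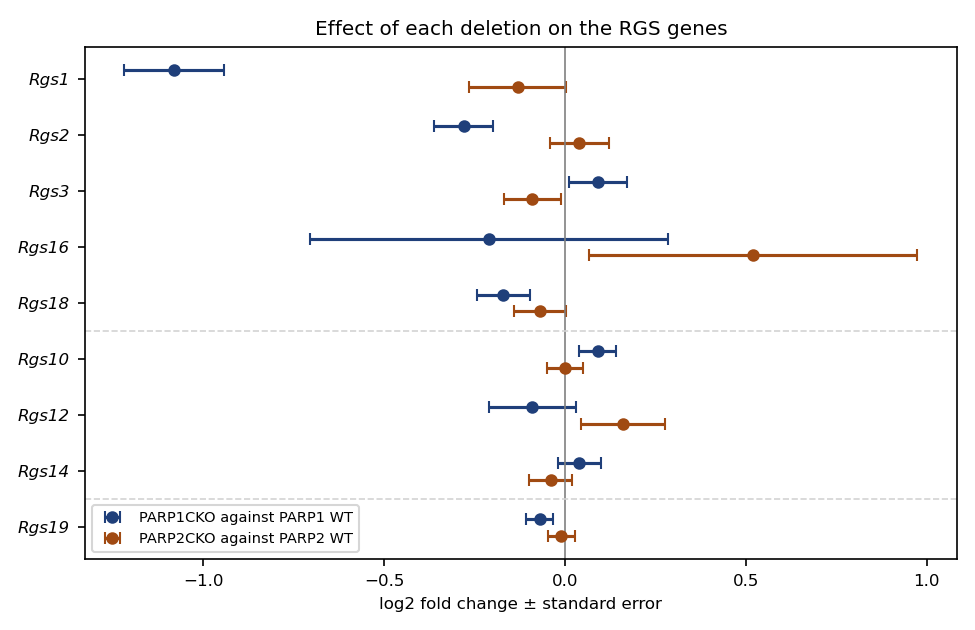
Log2 fold change with its standard error (horizontal axis) of each RGS gene in PARP1CKO against PARP1 WT (blue) and PARP2CKO against PARP2 WT (brown), with dashed lines between the R4, R12 and RZ branches. Rgs1 in PARP1CKO, at -1.08, stands apart from the other points, and the wide bars of Rgs16 go with its 8 to 25 counts per library.

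The PARP2 comparison did not enter the choice of the family and was tested. None of the 9 genes passed an adjusted p of 0.05 by the quasi-likelihood test of edgeR, adjusted over all genes, and 0.0530% of all genes did. The count was also 0 at an unadjusted p under 0.05, which 4.83% of all genes reached, and 0 with DESeq2 and with edgeR's likelihood-ratio test, which called 0.205% and 0.296% of all genes. Rgs1 had 103 and 120 CPM in the PARP2 WT and 103 and 102 CPM in the PARP2CKO libraries. To these digits the lower PARP2 WT library and the higher PARP2CKO library had the same level, and the gap between the groups was under 1 CPM. The log2 fold change of Rgs1 was -0.13 (standard error 0.134, edgeR adjusted p = 0.968). Its 95% confidence interval ran from -0.43 to 0.18, and the log2 fold change was -0.01 without PARP2 WT replicate 2 and -0.24 without PARP2 WT replicate 1. The difference between the effects of both deletions on Rgs1 was not tested, because the PARP1 effect chose the gene.

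Rgs2 had 136 and 124 CPM in the PARP2 WT libraries, and both PARP2CKO libraries, at 134 CPM, lay between them. Its log2 fold change was 0.04, with a 95% confidence interval from -0.14 to 0.23 (edgeR, adjusted p = 0.978). Rgs18 had 59.0 and 55.0 CPM in the PARP2 WT libraries, against 50.4 and 58.2 CPM in the PARP2CKO libraries, which overlapped, and its log2 fold change of -0.07 had an interval from -0.24 to 0.09. Rgs3 had 15.2 and 15.8 CPM in the PARP2 WT libraries, against 15.3 and 13.9 CPM in the PARP2CKO libraries. These groups overlapped, and the interval of Rgs3, from -0.27 to 0.09, held 0. For Rgs16 the PARP2 WT libraries held 21 and 8 counts and the PARP2CKO libraries 25 and 16 counts. At that depth its interval was wide, from 0.704-fold to 2.93-fold, and the log2 fold change lay between 0.06 and 1.28 when single libraries were left out.

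Rgs10 had 90.7 and 89.3 CPM in the PARP2 WT libraries, against 90.1 and 90.0 CPM in the PARP2CKO libraries. The PARP2CKO libraries were between the WT libraries, and the interval of the log2 fold change, from -0.11 to 0.12, was narrow. Rgs12 had 5.17 and 4.44 CPM in the PARP2 WT libraries, against 5.40 and 5.38 CPM in the PARP2CKO libraries. Its groups did not overlap, with a log2 fold change of 0.16 and an interval from -0.10 to 0.43 (edgeR, adjusted p = 0.954), or 0.06 without PARP2 WT replicate 2. Rgs14 had 49.8 and 47.9 CPM in the PARP2 WT libraries, against 49.9 and 45.2 CPM in the PARP2CKO libraries, with overlap and an interval from -0.17 to 0.10. Rgs19 had 100 and 99.4 CPM in the PARP2 WT libraries, against 99.7 and 98.6 CPM in the PARP2CKO libraries. Its groups overlapped, and its interval from -0.09 to 0.08 was the narrowest of the 9 genes.

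In the PARP2 comparison 4 genes were higher and 5 lower, with a median log2 fold change of -0.01, against -0.00 over all genes tested. Groups did not overlap in 2 of 9 genes, with Rgs1 lower and Rgs12 higher in PARP2CKO. Of all genes tested, 37.2% did not overlap, 18.8% lower and 18.4% higher. The 95% confidence interval lay within 0.5 on either side of 0 for 8 of the 9 genes, all but Rgs16. The summed level was 558 ± 1.82 CPM (SD, n = 2) in PARP2 WT IMCs, against 548 ± 0.285 CPM in PARP2CKO IMCs.

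Without Cre, the PARP2 WT and PARP1 WT groups differ in the floxed gene and in the line of mice. Since PARP1 WT libraries entered the comparison that chose Rgs1, their levels are set side by side with no test. Rgs1 was at 112 ± 12.3 CPM in PARP2 WT and 129 ± 20.6 CPM in PARP1 WT IMCs (SD, n = 2), and the groups overlapped. The log2 difference of Rgs1 was -0.21, and it depended on single libraries, at -0.04 without PARP1 WT replicate 1, -0.37 without PARP1 WT replicate 2, -0.10 without PARP2 WT replicate 1 and -0.33 without PARP2 WT replicate 2. In 3 of 9 genes the groups did not overlap, with Rgs10 and Rgs19 higher and Rgs2 lower in PARP2 WT. Of all genes tested, 51.9% did not overlap, 26.7% higher and 25.2% lower. Log2 differences of the 8 genes other than Rgs16 lay between -0.21 and 0.10, and that of Rgs16, with 8 to 21 counts, was -0.27. In this set of libraries Rgs1 levels of PARP1CKO IMCs, at 61.0 ± 11.6 CPM, were thus below the levels of both Cre-free groups.

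Members of the family differed in how their levels followed Rgs1 over the 8 libraries. The Pearson correlation of log2 CPM with Rgs1 was 0.85 for Rgs2, above that of 98.8% of all genes tested, and 0.68 for Rgs19, above that of 94.5%. It was 0.36 for Rgs18, 0.26 for Rgs12 and -0.06 for Rgs16. Rgs10, Rgs14 and Rgs3 had correlations of -0.19, -0.24 and -0.40. The points share the 4 groups, and the 2 PARP1CKO libraries, lowest in Rgs1, weigh most in each value.

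Over the same libraries, the 5 genes with the highest correlation with Rgs1 were Dusp1 (0.99), Mrpl18 (0.98), Fos (0.98), Klf6 (0.97) and Lypla1 (0.96). Fos, a subunit of the AP-1 transcription factor, had 173 and 147 CPM in the PARP1 WT libraries and 69.7 and 47.1 CPM in the PARP1CKO libraries. In the PARP2 line Fos had 135 and 186 CPM without Cre and 129 and 126 CPM with it. Dusp1, a phosphatase that switches off MAP kinases, had 61.0 and 54.2 CPM in the PARP1 WT libraries and 28.1 and 21.8 CPM in the PARP1CKO libraries. In the PARP2 line Dusp1 had 45.9 and 57.9 CPM without Cre and 44.1 and 40.1 CPM with it. In both genes the PARP1CKO libraries were the lowest of the 8. Klf6, a zinc finger transcription factor, had a smaller range, from 328 and 345 CPM in the PARP1CKO libraries to 403 CPM in PARP2 WT replicate 2. Mrpl18, a protein of the mitochondrial ribosome, ranged from 58.4 to 65.4 CPM, and Lypla1, which removes palmitate from proteins, from 76.6 to 86.9 CPM. In these 3 genes too the PARP1CKO libraries were the lowest, within a far narrower range than that of Rgs1. All 5 genes were picked by their correlation with Rgs1, so low levels in the PARP1CKO libraries go with that choice and are no separate result.

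**Figure D3:**
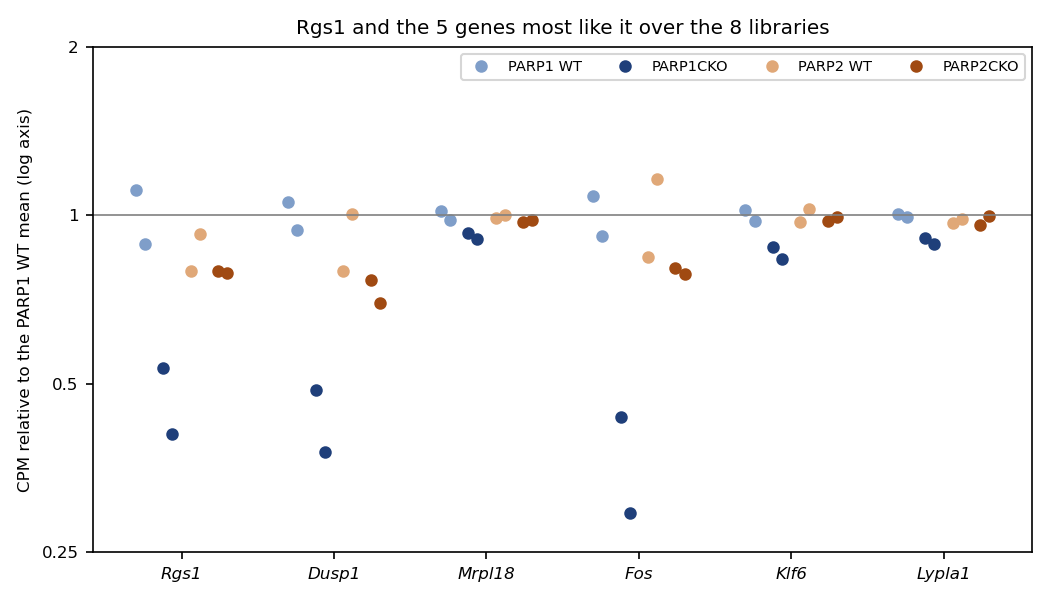
CPM of Rgs1 and of the 5 genes most like it in each library, divided by the mean of the PARP1 WT libraries (vertical axis, logarithmic), with 1 point per library. The PARP1CKO points of Rgs1, Dusp1 and Fos lie well below the others, whereas all points of Mrpl18, Klf6 and Lypla1 lie close to 1.

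Fos and Dusp1 belong to a list of 14 early response genes, which many stimuli and the handling of cells induce within minutes. Of these 14 genes 2 passed the edgeR test in PARP1CKO, both lower, namely Fos (log2 fold change -1.45, adjusted p = 0.0355) and Dusp1 (log2 fold change -1.20, adjusted p = 0.0187). In this comparison 0.106% of all genes passed. Fos and Dusp1 were also picked above by their likeness to Rgs1 over these libraries, so their p-values are not independent of that choice and are no support for it. Both calls were lost when PARP1 WT replicate 1, PARP1 WT replicate 2 or PARP1CKO replicate 2 was left out, with adjusted p of 0.0531 to 0.130 for Dusp1 and 0.0614 to 0.166 for Fos in edgeR, and that of Fos also when the 4 libraries of the comparison alone were fitted (adjusted p = 0.0540). Without those libraries in turn the log2 fold changes were -1.12, -1.29 and -1.03 for Dusp1 and -1.33, -1.57 and -1.20 for Fos. In all, 12 of the 14 were lower in PARP1CKO, their median log2 fold change was -0.29, and their summed level was 910 to 950 CPM in PARP1 WT and 596 to 711 CPM in PARP1CKO libraries. The lowest log2 fold changes in PARP1CKO were those of the transcription factors Fosb, at -3.08 (standard error 0.443, edgeR adjusted p = 0.0549), and Egr1, at -2.51 (standard error 0.372, edgeR adjusted p = 0.0597), and neither passed the quasi-likelihood test. At an unadjusted p under 0.05 there were 6 of the 14 in PARP1CKO, against 11.3% of all genes. DESeq2 and edgeR's likelihood-ratio test each called 5 of them, Fosb and Egr1 as well as Fos, Dusp1 and Zfp36, where over all genes DESeq2 called 0.754% of those it gave an adjusted p and the likelihood-ratio test 1.11%. In PARP2CKO none of the 14 passed the edgeR test, against 0.0530% of all genes, and 5 had an unadjusted p under 0.05 (4.83% of all genes). DESeq2 called 1 (Fosb, with 0.205% of all genes called) and the likelihood-ratio test 1 (Egr1, with 0.296% of all genes called). The median log2 fold change of the 14 was -0.17. Their summed level was 885 to 1044 CPM in PARP2 WT and 855 to 863 CPM in PARP2CKO libraries. In PARP2CKO the log2 fold change of Egr1 was -1.58 (standard error 0.345, edgeR adjusted p = 0.538), where Rgs1 had -0.13. The part of this response in the level of Rgs1 was not tested.

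Promoter sequences were at hand for 6 of the 9 RGS genes and for 4 of the 5 genes most like Rgs1. They run from 250 bases before to 50 bases after the RefSeq start of a transcript (GRCm38.p6), and those of Rgs1, Rgs14, Rgs18 and Lypla1 were unmatched. Because Rgs2 was the member that followed Rgs1 most closely and Fos and Dusp1 were 2 of its nearest genes, their promoters are shown for comparison, each in the direction of transcription. Capitals mark CGTCA or its reverse complement TGACG, known as the half-site of the cAMP response element (CRE), and in Dusp1 also the full palindrome TGACGTCA, in which half-sites on both strands overlap. The Rgs2 promoter is chr1:144004100-144004399 (minus strand), that of Fos chr12:85473640-85473939 (plus strand) and that of Dusp1 chr17:26508423-26508722 (minus strand).
Rgs2: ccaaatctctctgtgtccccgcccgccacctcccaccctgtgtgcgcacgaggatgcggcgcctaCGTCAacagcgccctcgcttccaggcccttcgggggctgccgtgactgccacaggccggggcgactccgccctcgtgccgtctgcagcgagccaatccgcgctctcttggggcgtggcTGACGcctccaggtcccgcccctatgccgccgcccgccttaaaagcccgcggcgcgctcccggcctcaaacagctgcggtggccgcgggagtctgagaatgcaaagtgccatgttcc
Fos: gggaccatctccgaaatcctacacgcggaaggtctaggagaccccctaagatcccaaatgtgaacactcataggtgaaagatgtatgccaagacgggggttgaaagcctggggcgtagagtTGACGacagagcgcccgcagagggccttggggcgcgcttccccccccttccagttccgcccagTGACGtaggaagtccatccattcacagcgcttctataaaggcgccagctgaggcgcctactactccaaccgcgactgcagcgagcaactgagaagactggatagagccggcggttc
Dusp1: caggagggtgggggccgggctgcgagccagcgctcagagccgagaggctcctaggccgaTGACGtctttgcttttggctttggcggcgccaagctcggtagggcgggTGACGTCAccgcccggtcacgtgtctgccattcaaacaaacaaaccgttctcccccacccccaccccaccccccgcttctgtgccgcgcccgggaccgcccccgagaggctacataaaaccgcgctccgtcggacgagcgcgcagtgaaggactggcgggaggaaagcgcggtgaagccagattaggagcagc

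With negative positions counted back from the start, half-sites of the Rgs2 promoter began at -185 and -67, and those of Fos at -129 and -66. The Dusp1 promoter held a half-site at -191 and the full CRE at -143. The 10 genes looked up had 14 promoters, some genes having several starts. Of these 14 promoters 4 held a half-site, 1 each of Rgs2, Rgs12, Fos and Dusp1. Of 32851 mouse promoters of the same length, 20.8% held 1 on either strand. The promoters of Mrpl18 and Klf6, also among the genes most like Rgs1, held no half-site and are not shown. The full CRE was found in 1 of the 14 promoters, that of Dusp1, and in 1.79% of all promoters. The AP-1 motif TGANTCA was found in 1 of the 14, a promoter of Rgs12, and in 7.81% of all promoters, and the EGR motif GCGNGGGCG in 2 of the 14, of Rgs2 and Rgs19, and in 5.55%, with both strands searched. The kappa B motif, held by 0.411% of promoters, was found in 0 of the 14. A match is a description of these letters and not a bound site.

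The Rgs1, Rgs2 and Rgs18 genes stand side by side on chromosome 1, within 776 kb, together with Rgs13 and Rgs21. Rgs13, 64.9 kb from Rgs1, had at most 2 counts in any library, and Rgs21, 267 kb away, had 0 counts in all 8. Of the other genes within 1 Mb of Rgs1, 4 were tested, Cdc73, Glrx2, Trove2 and Uchl5. Their log2 fold changes in PARP1CKO ran from -0.17 to 0.07. None passed the edgeR test after adjustment, against 0.106% of all genes, and 1 had an unadjusted p under 0.05, against 11.3%. DESeq2 and the likelihood-ratio test called 0, against 0.754% and 1.11% of all genes. The floxed Parp1 gene lies 36.3 Mb from Rgs1 on the same chromosome, and both groups of the PARP1 line are PARP1 flox/flox.

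A further 12 genes of the RGS family were looked up. Rgs20, Rgs21 and Rgs22 had 0 counts in every library, and 8 of the 12, these 3 included, had at most 3 counts in every library. Rgs4 reached 4 counts in 1 library. The other 3 genes, all tested, were Rgs11 with 115 to 207 counts, Rgs9 with 31 to 42 counts and Rgs8 with 6 to 15 counts, of which Rgs9 and Rgs11 belong to the R7 branch known from neurons and the retina. None of the 3 passed the edgeR test, against 0.106% of all genes in PARP1CKO and 0.0530% in PARP2CKO. None had an unadjusted p under 0.05 in either comparison, against 11.3% and 4.83% of all genes. DESeq2 called 0 in both, against 0.754% and 0.205%. The log2 fold changes in PARP1CKO were -0.04 for Rgs11, 0.12 for Rgs9 and -0.04 for Rgs8.

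The pathway on which RGS proteins act was followed with 93 other genes, listed by role, of which 82 were tested. None passed the edgeR test with Benjamini-Hochberg adjustment in PARP1CKO, where the smallest adjusted p was 0.135, or in PARP2CKO, where it was 0.538. Over all genes 0.106% and 0.0530% passed it. DESeq2 called 1 gene and the likelihood-ratio test 3 genes in PARP1CKO, against 0.754% and 1.11% of all genes, and both called 0 in PARP2CKO, against 0.205% and 0.296%. At an unadjusted p under 0.05 there were 8 genes (9.76%) in PARP1CKO, against 11.3% of all genes, and 7 genes (8.54%) in PARP2CKO, against 4.83%. The median log2 fold change of the 82 genes was 0.03 in PARP1CKO and 0.01 in PARP2CKO. Only Adcy3 in PARP1CKO had a log2 fold change beyond 0.5 in either direction, in either comparison.

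Among the receptors, 32 were tested, including chemoattractant receptors whose signal RGS proteins end. C3ar1, a receptor of the complement peptide C3a, had 703 and 747 CPM in PARP1 WT and 792 and 671 in PARP1CKO libraries. C5ar1, the receptor of C5a, had 486 and 501 against 560 and 515 CPM. In the PARP1 line the values of C3ar1 overlapped, and those of C5ar1 were higher in PARP1CKO (log2 fold change 0.12, standard error 0.0651, edgeR adjusted p = 0.501). At an unadjusted p under 0.05 there were 2 of the 32 in PARP1CKO, against 11.3% of all genes. These were the chemokine receptors Ccr2 and Ccr1, and neither passed after adjustment. Ccr2, known from monocytes that leave the marrow, had 71.3 and 69.8 CPM in PARP1 WT against 48.7 and 62.8 CPM in PARP1CKO (log2 fold change -0.34, standard error 0.103, edgeR adjusted p = 0.289). Ccr1 had 56.5 and 53.1 CPM against 39.5 and 48.6 CPM (log2 fold change -0.31, standard error 0.106, edgeR adjusted p = 0.335). Both differences rested more on PARP1CKO replicate 1, with log2 fold changes of -0.17 for each gene without it. Both CKO libraries were below both WT libraries in these 2 genes, and in the PARP2 line both genes overlapped between groups. Cxcr2, a neutrophil chemokine receptor, had 13.4 and 16.4 CPM in the PARP2 WT and 10.7 and 10.5 CPM in the PARP2CKO libraries. Its log2 fold change of -0.49 (standard error 0.126) did not pass the edgeR test after adjustment (adjusted p = 0.721). Over the 32 receptors the median log2 fold change was 0.02 in PARP1CKO and -0.07 in PARP2CKO.

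Of 10 G alpha subunits tested, Gnai2, a main substrate of R4 proteins in leukocytes, was the most counted. Gnai2 had 1014 and 1054 CPM in PARP1 WT and 1052 and 1002 in PARP1CKO libraries, and 1034 and 1042 CPM in the PARP2 WT against 1059 and 993 CPM in the PARP2CKO libraries. Its groups overlapped in both lines, with log2 fold changes of -0.01 and -0.02. Gnas, the subunit that activates adenylyl cyclase and no substrate of most RGS proteins, had log2 fold changes of 0.06 and 0.03, and the beta subunits Gnb1 and Gnb2 0.00 and 0.06 in PARP1CKO and 0.02 and 0.04 in PARP2CKO. Among 13 beta and gamma subunits, Gng10 was at 38.4 and 39.2 CPM in PARP1 WT and 33.8 and 32.1 CPM in PARP1CKO (log2 fold change -0.23, standard error 0.0504, edgeR adjusted p = 0.176). Gngt2, a gamma subunit also found in cone cells, had a log2 fold change of 0.36 in PARP2CKO (standard error 0.102, edgeR adjusted p = 0.840). This value was 0.23 without PARP2 WT replicate 2 and 0.50 without PARP2 WT replicate 1. In PARP1CKO the log2 fold change of Gngt2 was -0.42 (standard error 0.117, edgeR adjusted p = 0.287).

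Receptor kinases and arrestins also end receptor signals, and 7 were tested. The kinase Grk2, listed as Adrbk1, had log2 fold changes of 0.03 in PARP1CKO and 0.01 in PARP2CKO. Arrb2, an arrestin, had 275 and 271 CPM in the PARP2 WT and 304 and 307 CPM in the PARP2CKO libraries, without overlap, and a log2 fold change of 0.16 (standard error 0.0364, edgeR adjusted p = 0.538). It was at 240 to 246 CPM in all 4 libraries of the PARP1 line. Of the 6 exchange factors and modulators of G alpha, the most counted were Gpsm3, at 68.7 and 70.1 CPM in PARP1 WT against 73.8 and 73.5 CPM in PARP1CKO, and Ccdc88a, with log2 fold changes of -0.00 and 0.01.

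Among 14 second-messenger enzymes Plcb2, a phospholipase C that Gq and beta-gamma subunits activate, had 121 and 130 CPM in PARP1 WT and 102 and 107 CPM in PARP1CKO libraries. Its log2 fold change was -0.26 (standard error 0.0481, edgeR quasi-likelihood adjusted p = 0.135), and DESeq2 called it (adjusted p = 0.00593), as did edgeR's likelihood-ratio test (adjusted p = 0.00325) and the quasi-likelihood test with no filter on low counts (adjusted p = 0.0208). Adcy3, an adenylyl cyclase, had 4.52 and 5.50 CPM in PARP1 WT and 6.74 and 7.70 CPM in PARP1CKO libraries, and its log2 fold change of 0.52 (standard error 0.123) had an adjusted p of 0.236 in the edgeR test. The more abundant Adcy7 and Pik3r5, a subunit of the PI3 kinase that beta-gamma subunits activate, had log2 fold changes of -0.04 and -0.00 in PARP1CKO and 0.07 and 0.08 in PARP2CKO.

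**Figure D4:**
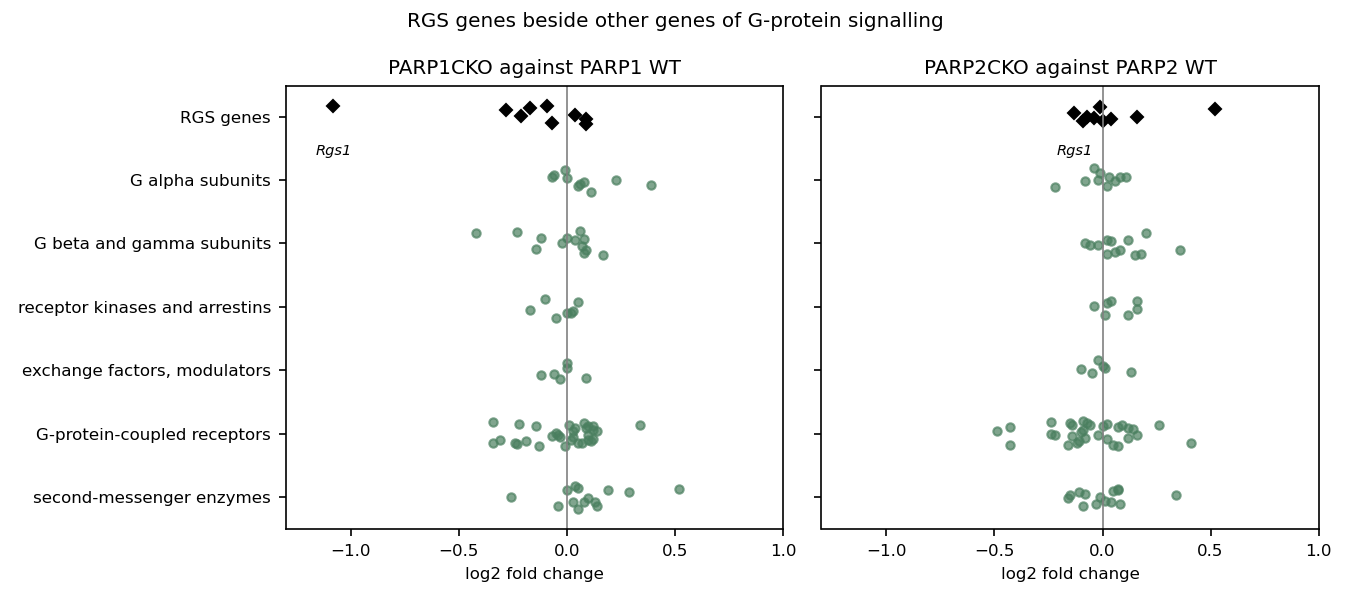
Log2 fold change (horizontal axis) of the RGS genes (black diamonds) and of the 82 tested genes of G-protein signalling by role (green points) in PARP1CKO against PARP1 WT (left) and PARP2CKO against PARP2 WT (right), with 1 point per gene and no vertical scale within a row. Rgs1 on the left, at -1.08, lies beyond every pathway gene, and on the right the pathway genes spread from -0.49 to 0.41.

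Markers of other blood cells were followed beside these results. None of the genes of these lists passed the edgeR test in PARP1CKO, against 0.106% of all genes, or in PARP2CKO, against 0.0530%. In the PARP1 line the erythroid sum did not overlap between groups, nor did that of monocytes and macrophages given above. The erythroid markers, genes of haemoglobin and of red cell precursors, numbered 7, of which Hba-a1 and Hba-a2 are near-identical copies with equal counts in every library and were counted once. The 6 markers so counted summed to 3.28 to 4.01 CPM in PARP1 WT and 5.31 to 6.48 CPM in PARP1CKO libraries. All 4 that were tested had log2 fold changes above 0 in PARP1CKO (median 0.59). Of these 1, Hba-a1, had an unadjusted p under 0.05, against 11.3% of all genes. In the PARP2 line the erythroid sums were 1.83 to 1.88 CPM without Cre and 1.49 to 1.51 CPM with it. Of the 4 tested markers 3 were lower and 1 higher in PARP2CKO, with a median log2 fold change of -0.52. An unadjusted p under 0.05 was found for 1 of them, against 4.83% of all genes.

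The summed level of 8 B cell markers was 30.3 to 35.2 CPM in PARP1 WT and 31.7 to 44.5 CPM in PARP1CKO libraries, and 9.65 to 11.6 and 8.31 to 11.3 CPM in PARP2 WT and PARP2CKO. Of these markers 7 were tested, and all 7 had a log2 fold change above 0 in PARP1CKO, with a median of 0.27. Of 10 T and NK cell markers 8 were in the table, with sums of 4.07 to 4.63 CPM in PARP1 WT and 4.56 to 5.99 CPM in PARP1CKO libraries. The 3 that were tested had log2 fold changes above 0 in PARP1CKO (median 0.45). The NK marker Ncr1 had at most 3 counts in every library. The 7 megakaryocyte and platelet markers, from cells known for Rgs18, summed to 350 to 415 CPM in PARP1 WT and 361 to 411 CPM in PARP1CKO. Neutrophil markers summed to 2861 to 3068 CPM in PARP1 WT and 2519 to 3189 CPM in PARP1CKO, with Ly6g not in the table, and the 7 basophil and mast cell markers to 47.4 to 51.3 and 46.5 to 49.0 CPM. These 5 sums overlapped between the PARP1 WT and PARP1CKO libraries.

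In the PARP2 line 3 more sums did not overlap, each lower in PARP2CKO. T and NK cell markers summed to 4.50 to 5.02 CPM in PARP2 WT and 3.34 to 4.08 CPM in PARP2CKO. Basophil and mast cell markers summed to 29.5 to 30.8 CPM in PARP2 WT and 24.6 to 24.9 CPM in PARP2CKO, with 7 of 7 below 0 and a median log2 fold change of -0.24. Neutrophil markers summed to 3027 to 3258 CPM in PARP2 WT and 2650 to 3011 CPM in PARP2CKO, with 6 of 7 below 0 and a median of -0.17. Lyz2, whose promoter drives the Cre in such mice, had log2 fold changes of -0.63 in PARP1CKO and -0.72 in PARP2CKO, with adjusted p of 0.135 and 0.187 in edgeR. The median log2 fold change of the 8 monocyte and macrophage markers was 0.06 in PARP1CKO and 0.08 in PARP2CKO, and 6 of 8 were above 0 in each. In edgeR 2 of the 8 had an unadjusted p under 0.05 in PARP1CKO, against 11.3% of all genes. In PARP2CKO there were 4 of the 8, against 4.83% of all genes. Of these markers only Lyz2 was lower, in both comparisons. The part of cell composition in the level of Rgs1 was not tested.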

How the data were processed

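RNA of cultured IMCs was sequenced in 8 libraries. The authors deposited unnormalized gene counts. Their single-end reads, from a stranded kit, were mapped to mm10 with TopHat2 2.0.12 and counted with featureCounts. The annotation and the strand setting are not given in the sources used here, so reads of genes that overlap on opposite strands may not be told apart. Groups were taken from the genotype in the labels. Of 24062 genes, 6520 had no count and 13197 passed edgeR's filterByExpr, with 37852450 to 61845125 counts per library. Intervals cover the spread between libraries.

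Counts were fitted with edgeR 4.0.16 in R 4.3.3 (TMM, quasi-likelihood test, a mean for each of the 4 groups, all 8 libraries, Benjamini-Hochberg adjustment over all genes tested, threshold 0.05). The common coefficient of biological variation came to 0.055, and tests were checked on simulated data. Replicates differed by more than sampling noise (chi-square per gene 8.56 to 12.9). CPM per kb used the longest coding transcript of GENCODE M21 paired with a RefSeq record, and positions follow GENCODE M21 (GRCm38). Motifs were searched in RefSeq promoters of 300 bases with Python 3.11.15.

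The genes named are the 9 RGS genes, Parp1, Parp2, other RGS genes by their counts, and the 5 genes with the highest Pearson correlation with Rgs1 (log2 CPM, prior count 2). From the pathway lists they are every called gene, the 2 most counted genes of each list and the 3 genes with the smallest p in each comparison. Fos and Dusp1 as early response genes, Egr1, Fosb, Zfp36, Ccr1, Ccr2, Hba-a1, Hba-a2, Ncr1, Lyz2 and the neighbours of Rgs1 were named after their values were seen. The genes and lists were chosen with earlier results of these data known. Alternatives were DESeq2 1.42.0 and its size factors, library size alone, a likelihood-ratio test, the 4 libraries of a comparison, no filter, 1 CPM as the minimum in 2 libraries, a block for the replicate number and leaving out each library.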

Additional observations from a re-analysis of the deposited data

Results flagged for a closer look

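For 4 genes of G-protein signalling both PARP1CKO libraries lay on one side of both PARP1 WT libraries, and both PARP2CKO libraries on the opposite side of both PARP2 WT libraries. None of the 4 passed edgeR's test of the difference between the effects after Benjamini-Hochberg adjustment. Gngt2 had a log2 fold change of -0.42 in PARP1CKO and 0.36 in PARP2CKO, a difference of 0.78 (adjusted p = 0.240 from edgeR). Plcb2 had -0.26 and 0.05, a difference of 0.31 (adjusted p = 0.306 from edgeR). Gng10 had -0.23 and 0.08, a difference of 0.31 (adjusted p = 0.348 from edgeR). Gpsm3 had 0.09 and -0.10, a difference of -0.18 (adjusted p = 0.609 from edgeR). No RGS gene showed opposite directions without overlap in both lines.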

How the results depend on the processing

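The log2 fold change of Rgs1 in PARP1CKO was -1.08, from -1.29 to -0.90 when single libraries were left out and from -1.09 to -1.08 under the other alternatives. The count of RGS genes called in PARP2CKO was 0 under all 12 alternatives, and over the 107 values of single genes the adjusted p was at least 0.778. In 100 of these 107 the direction was that given above, and in 7 it was reversed. Leaving out single libraries gave log2 fold changes from -0.02 (without PARP2 WT replicate 2) to 0.11 for Rgs2, from -0.01 (without PARP2 WT replicate 2) to 0.01 for Rgs10, which was -0.00 without PARP2CKO replicate 1, from -0.11 to 0.03 (without PARP2CKO replicate 2) for Rgs14 and from -0.18 to 0.03 (without PARP2CKO replicate 1) for Rgs18. Rgs10 was also reversed, at -0.03, with library size alone and, at -0.00, with no filter. The cause was not tested. Rgs16 had no value at a minimum of 1 CPM.

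Of the pathway genes 0 were called in PARP1CKO, against 1 (Plcb2) with no filter on low counts, 1 (Plcb2) with DESeq2 and 3 (Gng10, Adcy3 and Plcb2) with the likelihood-ratio test, and 0 in PARP2CKO under all 12 alternatives. Over all genes 14 were called in PARP1CKO and 7 in PARP2CKO, against 101 and 26 with no filter, 86 and 27 with DESeq2 and 146 and 39 with the likelihood-ratio test. With no filter Egr1 and Fosb in PARP1CKO (edgeR adjusted p = 2.39e-05 and 4.02e-05) and Egr1 in PARP2CKO (edgeR adjusted p = 0.00370) passed, and with the replicate block Egr1 in both (edgeR adjusted p = 0.00671 and 0.0405). When the 4 libraries of the comparison alone were fitted, Fosb passed in PARP1CKO (edgeR adjusted p = 0.00599) and Egr1 did not (edgeR adjusted p = 0.0540). Egr1 in PARP2CKO had a log2 fold change of -1.03 without PARP2 WT replicate 2, against -1.58. Leaving out single libraries gave 1 to 34 calls over all genes in PARP1CKO and 6 to 19 in PARP2CKO. RGS genes without overlap between PARP2 WT and PARP1 WT numbered 3, against 4 with DESeq2 size factors, and from 5 to 7 when a library was left out, since a group then holds 1 library.

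A pairing of libraries by replicate number was not seen. Deviations of libraries with the same number had correlations of -0.13 in the PARP1 line and 0.15 in the PARP2 line. With 2 libraries in a group these values cannot settle whether the numbers pair the libraries. With a replicate block the log2 fold change of Rgs1 was -1.09 and the calls over all genes were 17 and 11. With the numbers of the PARP1 line crossed, an alternative chosen after seeing the data, there were 46 calls in PARP1CKO. With 2 libraries in a group, differences as small as those of most RGS genes were within the error of the libraries, and for Rgs16 the depth limits any statement.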
